A study of Homo sapiens with 4 samples.

Results

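Lysosomal hydrolases and autophagy genes are described here as 44 genes chosen by name, out of 27940 gene symbols in the tables. They comprise 30 enzymes and enzyme activators of the lysosomal lumen, 5 lysosomal membrane proteins, 3 genes of the proton pump, the transcription factors TFEB and TFE3, and 4 genes of autophagy. The rule goes by gene symbol, but the list was drawn up with earlier results of these data known. Rows of 1 symbol were summed. A total of 42 genes reached a mean of 1 FPKM (fragments normalized for transcript length and library depth) and were tested, and each of the 42 stood at 1 FPKM or more in every library, so that the filter did not depend on 1 group. CTSH and CTSZ, both cathepsins, were at or near 0 in all 4 libraries, between 0.0649 and 0.227 scaled FPKM for CTSH and between 0 and 0.144 for CTSZ.

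The tested cells were U87, an established human glioma line, infected with lentivirus encoding 1 short hairpin RNA directed at PTPRN (group shPTPRN3, 2 libraries). The controls were U87 cells infected with the empty FUGW-H1 vector (group shNC, 2 libraries), which the design text of the series names H1-RFP (WT). PTPRN encodes a receptor-type tyrosine phosphatase family protein of dense-core secretory vesicles, and the title of the series concerns cell growth. Both groups were grown in DMEM with 10% fetal bovine serum. The labels give neither the time after infection nor whether the cells were a pool or a clone. The design text calls the replicates biological without naming separate cultures. The p-values therefore rest on library-to-library spread that may be partly technical.

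The lysosome is the acidic compartment in which cells break down proteins, glycans and lipids. Its enzymes work at the low pH that a membrane proton pump maintains, and autophagy delivers cytoplasm to it in vesicles coated with lipid-linked proteins of the LC3 and GABARAP family. The MiT factors TFEB and TFE3 switch on many of these genes together through a short palindrome, the CLEAR element, in their promoters. One member, GLB1, encodes the enzyme whose activity is stained as senescence-associated beta-galactosidase.

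The CLEAR palindrome, TCACGTGA, was searched in the RefSeq promoter windows (GRCh38.p14), which run from 250 bases before to 50 bases after each gene's start. It reads the same on both strands and contains the E-box CACGTG. Of the 44 genes, 33 had a window, and 5 of these (15.2%) held the palindrome, against 283 of 27305 promoters (1.04%) in all. In the related lists described below, it was in 20.7% of windows of other lysosomal hydrolases and 15% of other membrane and transport genes. The share was 6.67% for other pump subunits, 2.38% for other autophagy genes and 7.69% for the MiT and mTORC1 list. The E-box was in 9 of the 33 (27.3%), against 7.43% of all promoters. The 5 windows are shown because they carry the element the family is known for, with the palindrome in capitals and 50 bases on either side, read 5′ to 3′ along the gene's own strand.
CTSA: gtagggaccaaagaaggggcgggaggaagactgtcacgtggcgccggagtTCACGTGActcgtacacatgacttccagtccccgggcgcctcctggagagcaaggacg
LAMP1: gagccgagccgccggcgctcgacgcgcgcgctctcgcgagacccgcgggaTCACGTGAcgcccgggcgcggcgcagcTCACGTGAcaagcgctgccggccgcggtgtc
ATP6V0D1: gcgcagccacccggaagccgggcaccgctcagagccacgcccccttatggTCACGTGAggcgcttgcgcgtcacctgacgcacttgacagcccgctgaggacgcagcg
MCOLN1: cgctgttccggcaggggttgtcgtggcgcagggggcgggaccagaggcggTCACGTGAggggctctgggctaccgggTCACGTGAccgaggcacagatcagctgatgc
GAA: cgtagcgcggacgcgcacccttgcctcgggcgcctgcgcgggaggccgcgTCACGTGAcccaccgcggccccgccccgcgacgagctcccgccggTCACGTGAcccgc
The CTSA window is chr20:45891259-45891366 on the plus strand and the LAMP1 window chr13:113297160-113297267 on the plus strand. The ATP6V0D1 window is chr16:67481160-67481267 on the minus strand, and those of MCOLN1 and GAA are chr19:7522532-7522639 and chr17:80101454-80101561, both on the plus strand. LAMP1, MCOLN1 and GAA hold 2 copies within the stretch shown, CTSA and ATP6V0D1 1 copy. The palindrome is a match of letters, and binding was not measured. Genes without a window were ARSA, ASAH1, ATP6V1H, CTSB, CTSK, CTSS, HEXA, LAMP2, MANBA, NAGLU and PSAP.

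Among these libraries, PTPRN itself stood at 4.96 and 3.62 scaled FPKM in shPTPRN3 and at 27.6 and 19.8 in shNC, a ratio of 0.181 between the group means (limma, adjusted p = 0.0592). The files give no counts, and a rough estimate of depth from interval widths (in units of 1e6 fragments) was 37.8 and 16.0 in shPTPRN3 and 23.8 and 14.8 in shNC. Of 12 glioma line markers, 7 reached the mean of 1 FPKM and were tested. The vimentin gene VIM and the glioma-associated CHI3L1 were abundant in every library (1193 to 2098 and 298 to 664 scaled FPKM), while the astrocyte marker GFAP was listed at 0 in all 4. S100B, SOX2, OLIG2 and PDGFRA peaked at 0.204, 0.245, 0.872 and 0.0916 scaled FPKM. CD44, TNC and EGFR ran from 84.6 to 97.7, from 22.2 to 73.8 and from 4.22 to 15.5. Of 13 macrophage and microglia markers, 11 were under 1 FPKM in every library. The summed level of the 13 was 3.51 and 3.35 in shPTPRN3 and 3.60 and 3.84 in shNC, with C1QB at 0 throughout and PTPRC at 0.212 or less. CSF1R, the receptor that macrophages need, had 1.51 and 0.698 in shPTPRN3 and 2.17 and 1.65 in shNC. Of the glioma line markers, fibronectin (FN1) had 341 and 91.6 in shPTPRN3 and 43.2 and 66.8 in shNC, and nestin (NES) 1.30 and 0.972 in shPTPRN3 and 2.35 and 4.01 in shNC. The part of such differences in the values that follow was not tested.

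Lysosomal genes were, as a list, higher in the shPTPRN3 libraries, though no single gene passed the test over all genes. Of the 42 tested members, 33 had a positive log2 fold change and 9 a negative one, with a median of 0.48, against a median of -0.01 over the 11390 genes tested. The middle of the list, from the lower to the upper quartile, ran from 0.22 to 0.80, against -0.37 to 0.35 over all genes. Both shPTPRN3 values lay above both shNC values for 23 members (54.8%) and below both for 4 (9.52%), while over all genes tested these shares were 21.5% and 23.1%. Summed over all 44 genes, the scaled level was 9124 and 7964 FPKM in shPTPRN3 and 6573 and 5711 in shNC. As a share of all deposited FPKM, the 44 genes held 2.34% and 2.39% in shPTPRN3 and 1.43% and 1.78% in shNC. The 5 most abundant genes, CTSD, CD63, PSAP, CTSK and CTSA, weigh most in these sums and shares. Of these, CTSD and CTSK overlapped between the groups, and CTSA shares its locus with PLTP. In bulk RNA, a different mix of cells and a different RNA level per cell cannot be told apart.

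Gene by gene, 0 of the 42 members passed limma's adjusted p under 0.05 in either direction. Over all genes 0.079% passed as higher and 0.342% as lower. At an unadjusted p under 0.05, 5 members were higher (11.9%) and 1 was lower (2.38%), against 5.67% and 7.77% of all genes. These were ATP6AP1, GLB1, LIPA, SCARB2 and FUCA1 on the higher side and GABARAPL1 on the lower. Without single libraries the median log2 fold change of the 42 ran from 0.38 to 0.70. Leaving out 1 library at a time turned the sign of 10 of the 42 log2 fold changes, moved 21 others by over 1.5 times and left 11 within that range. These 11 were ASAH1, ATP6AP1, CTSA, CTSB, GLB1, GM2A, LIPA, NEU1, PPT1, PSAP and SCARB2. The signs that turned were those of ARSB, CTSC, CTSD, CTSK, CTSL, GAA, GLA, MAP1LC3B, NAGLU and SQSTM1. The exact permutation test of 2 against 2 values cannot go below p = 0.333, two-sided.

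**Figure D1:**
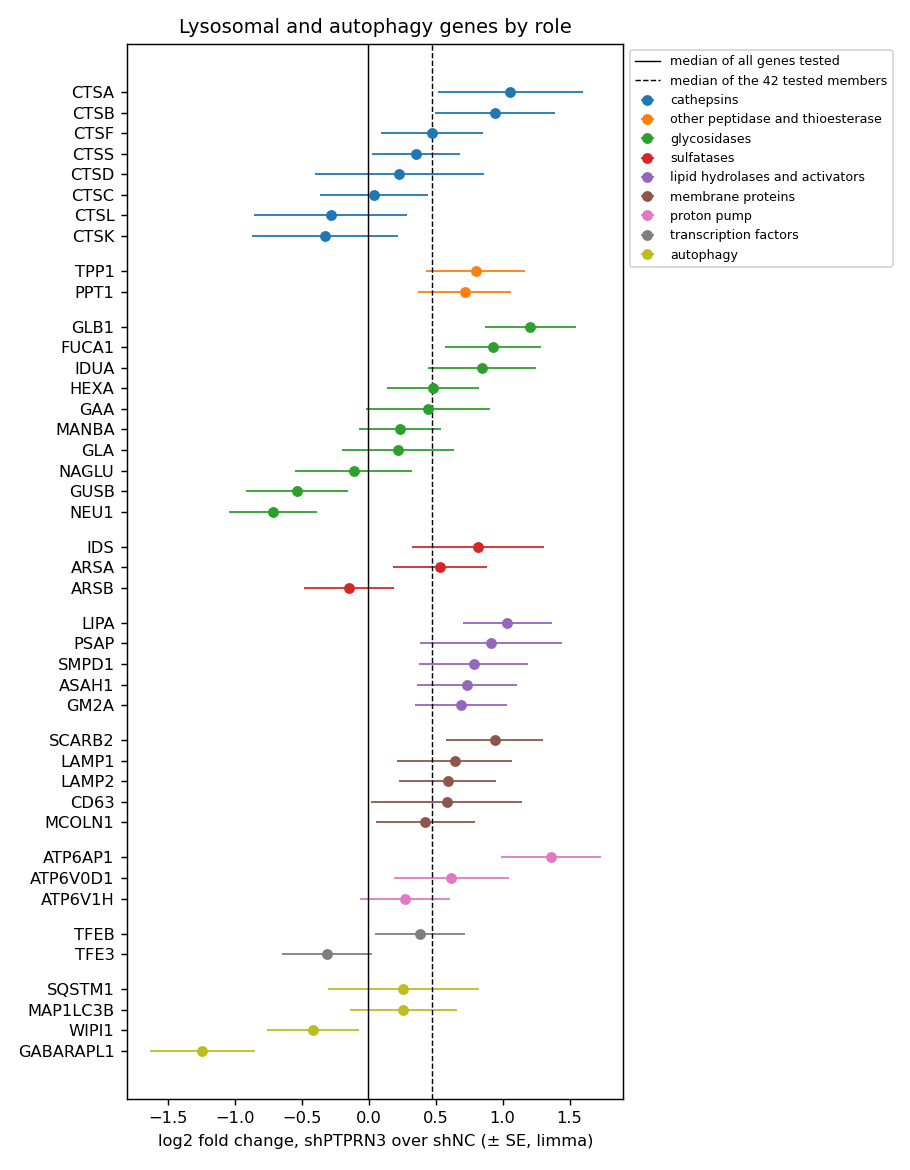
Log2 fold change of shPTPRN3 over shNC for the 42 tested genes, grouped by role; points are limma estimates and bars their standard errors. All 5 lipid hydrolases and activators, all 5 membrane proteins and all 3 proton pump genes lie right of 0, while NEU1 (-0.71) and GABARAPL1 (-1.24) lie farthest left.

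The proton pump, or V-ATPase, acidifies the lysosome, and its 3 members all had higher values. ATP6AP1, an accessory subunit of the pump on chromosome X (154428677 to 154436516, hg38), had 113 and 102 scaled FPKM in shPTPRN3 and 49.5 and 34.0 in shNC. Both shPTPRN3 libraries were high and the groups did not overlap. On the log2 scale the difference was 1.36, SE 0.37, the largest of the 42 (limma, adjusted p = 0.185). ATP6V0D1, a subunit of the membrane sector, had 146 and 238 in shPTPRN3 and 130 and 113 in shNC. Its groups did not overlap, but the difference came mostly from the libraries numbered 2, at 1.06 on the log2 scale, with 0.17 within those numbered 1. ATP6V1H, of the cytosolic sector, had 35.2 and 45.0 in shPTPRN3 and 33.9 and 31.9 in shNC, a log2 fold change of 0.27. Without shPTPRN3 replicate 2 ATP6V0D1 was at 0.27 and ATP6V1H at 0.10.

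The other pump subunits, a list of 21 genes, had 16 tested members, of which 13 were positive, with a median log2 fold change of 0.27. The groups did not overlap for 6 on the higher side (37.5%) and 2 on the lower (12.5%), against 21.5% and 23.1% of all genes, and none passed the adjusted threshold (1, or 6.25%, was higher at an unadjusted p under 0.05, against 5.67% of all genes). ATP6V1B2, a B subunit of the cytosolic sector, had 64.6 and 116 scaled FPKM in shPTPRN3 and 41.3 and 40.5 in shNC. ATP6V0E1, a small subunit of the membrane sector, had lower values, 58.0 and 48.9 in shPTPRN3 and 132 and 71.2 in shNC. The median of the list was 0.59 without shNC replicate 1.

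Among the glycosidases, which remove sugars from glycoproteins and glycolipids, GLB1 had the largest log2 fold change. GLB1, the beta-galactosidase of chromosome 3 (32996608 to 33097230, hg38), had 94.4 and 94.3 scaled FPKM in shPTPRN3 and 39.5 and 41.3 in shNC. GLB1 averaged 94.4 ± 0.0683 in shPTPRN3 and 40.4 ± 1.29 in shNC (SD, n = 2 each), a ratio of 2.34. Before scaling, the deposited FPKM were 99.4 and 88.9 in shPTPRN3 and 41.0 and 40.2 in shNC. The small SD in shPTPRN3 therefore depends on the scaling. On the log2 scale the difference was 1.205, SE 0.34 (limma, adjusted p = 0.191). Within the libraries numbered 1 and 2 the log2 difference was 1.24 and 1.17. TMPPE, which lies inside the GLB1 locus on the same strand, was listed at 0 in all 4 libraries.

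In lysosomes the GLB1 protein sits in a complex with cathepsin A and the sialidase NEU1, and NEU1 differed in sign from the other two. NEU1, which removes sialic acid, had 10.4 and 8.29 scaled FPKM in shPTPRN3 and 18.3 and 13.7 in shNC. Its groups did not overlap, with a log2 fold change of -0.71 and an SE of 0.33 (limma, adjusted p = 0.412). The tables hold 8 rows for NEU1, 1 on chromosome 6 and the others on its alternate sequences, and these values are their sum. The row on chromosome 6 alone was low, with deposited intervals of 1.15 to 1.61 and 0.724 to 1.25 in shPTPRN3. In shNC its intervals were 2.02 to 2.82 and 1.34 to 2.06. Over all alternatives tried, the log2 fold change of NEU1 ran from -0.91 to -0.47.

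Of the 10 glycosidases, 7 had a positive and 3 a negative log2 fold change. FUCA1, which removes fucose, had 9.02 and 5.49 scaled FPKM in shPTPRN3 and 3.91 and 2.67 in shNC (log2 fold change 0.93). IDUA, which acts on heparan and dermatan sulfate, had 27.8 and 13.6 in shPTPRN3 and 11.2 and 9.67 in shNC (0.84). In both the groups did not overlap. GUSB, the beta-glucuronidase, had 12.1 and 6.38 in shPTPRN3 and 14.7 and 11.9 in shNC, which overlap (log2 fold change -0.54, and -0.12 without shPTPRN3 replicate 2 or -0.95 without shPTPRN3 replicate 1). HEXA, a subunit of beta-hexosaminidase, was at 0.48, GAA, which digests glycogen, at 0.44, and NAGLU, which acts on heparan sulfate, at -0.11. Without shPTPRN3 replicate 1 these 3 were at 0.26, -0.15 and -0.58, FUCA1 at 0.61 and IDUA at 0.36. NAGLU was at 0.35 without shPTPRN3 replicate 2. Alpha-galactosidase, GLA, differed in sign between the numbered libraries, with -0.44 within those numbered 1 and 0.88 within those numbered 2. It shares its whole locus with the read-through gene RPL36A-HNRNPH2, on the other strand.

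**Figure D2:**
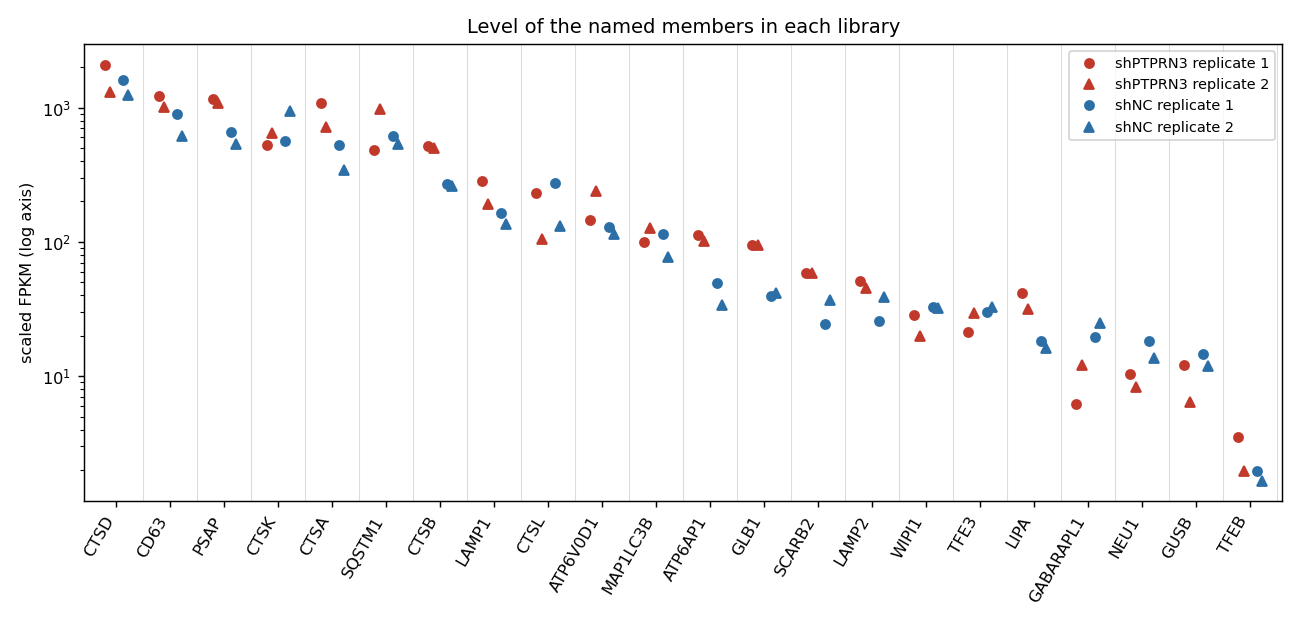
Scaled FPKM (log axis) of 22 named genes in each library, shPTPRN3 in red left of shNC in blue, circles for replicate 1 and triangles for replicate 2. The shPTPRN3 points of GLB1 (94.4 and 94.3) and CTSB (521 and 498) nearly coincide above the shNC points, while those of SQSTM1 (486 and 975) lie on either side of them.

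Cathepsins are the main lysosomal proteases. CTSD, an aspartic protease, was the most abundant of the 44 genes, with 2081 and 1301 scaled FPKM in shPTPRN3 and 1598 and 1232 in shNC. These values overlap, the log2 difference was 0.23, SE 0.63, and it was -0.11 without shPTPRN3 replicate 1. CTSB, a cysteine protease, had 521 and 498 in shPTPRN3 and 268 and 262 in shNC. The replicates of CTSB lay close together in both groups and the groups did not overlap, with a log2 difference of 0.94, SE 0.45 (limma, adjusted p = 0.421).

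CTSK and CTSL, also cysteine proteases, showed no such separation. CTSK, best known as the collagen-degrading enzyme of osteoclasts, was the fourth most abundant of the 44 genes, with 525 and 643 scaled FPKM in shPTPRN3 and 562 and 944 in shNC. CTSL had 231 and 104 in shPTPRN3 and 273 and 131 in shNC, so that in each group the library numbered 1 was the higher. The log2 fold changes were -0.33 for CTSK and -0.28 for CTSL. The sign turned to 0.05 for CTSK without shNC replicate 2, and to 0.24 and 0.28 for CTSL without shNC replicate 1 and without shPTPRN3 replicate 2. CTSF (0.47), CTSS (0.36) and CTSC (0.04) did not pass limma's test either (adjusted p from 0.640 to 0.981). Of these, CTSF and CTSC overlapped between the groups and CTSS did not. CTSS had 10.8 and 7.26 scaled FPKM in shPTPRN3 and 6.50 and 6.92 in shNC, and was at 0.10 without shPTPRN3 replicate 1.

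CTSA, the carboxypeptidase that protects GLB1 and NEU1, had 1078 and 722 scaled FPKM in shPTPRN3 and 523 and 343 in shNC. The groups did not overlap, and the log2 fold change of CTSA was 1.06, SE 0.54 (limma, adjusted p = 0.444). Its locus is on chromosome 20 (45890144 to 45898819, hg38, plus strand), and its last 200 bases overlap the end of PLTP on the minus strand. PLTP, a phospholipid transfer protein, was listed at 0 in both shPTPRN3 libraries and had 159 and 111 scaled FPKM in shNC (limma, adjusted p = 0.00151). How fragments were divided between the overlapping genes was not tested. The summed FPKM of CTSA and PLTP was 1078 and 722 in shPTPRN3 and 682 and 454 in shNC. On that sum the log2 difference was 0.66, and weighting each gene by its mean transcript length gave 0.62. Within the libraries numbered 1 and 2 the log2 difference of the sum was 0.66 and 0.67. NEURL2, at the other end of CTSA, was listed at 0 in all 4 libraries.

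**Figure D3:**
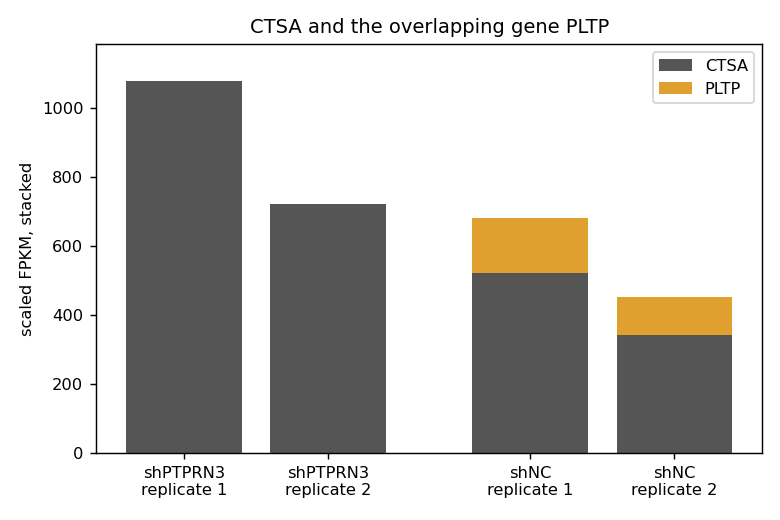
Stacked scaled FPKM of CTSA and PLTP in each library, the 2 shPTPRN3 libraries left of the 2 shNC libraries. With PLTP added, the shNC bars reach 682 and 454, below the shPTPRN3 bars at 1078 and 722, which hold no PLTP.

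All 5 enzymes of lipid breakdown and their activators were higher in both shPTPRN3 libraries than in both shNC libraries. LIPA, the acid lipase that frees cholesterol from its esters, had 41.6 and 31.6 scaled FPKM in shPTPRN3 and 18.3 and 16.2 in shNC. LIPA differed by 1.03 on the log2 scale, SE 0.33 (limma, adjusted p = 0.244). PSAP, the precursor of the saposins that present sphingolipids to their enzymes, had 1166 and 1083 in shPTPRN3 and 660 and 536 in shNC, a log2 fold change of 0.92. The other 3 ran from 0.69 for GM2A, the activator that serves HEXA, through 0.73 for the acid ceramidase ASAH1 to 0.78 for the acid sphingomyelinase SMPD1, which was at 0.39 without shPTPRN3 replicate 1. None of the 5 passed the adjusted threshold (limma, adjusted p from 0.244 to 0.484).

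TPP1, a peptidase, and PPT1, a thioesterase, are the enzymes of childhood neuronal ceroid lipofuscinoses. TPP1 had 94.5 and 62.9 scaled FPKM in shPTPRN3 and 43.0 and 44.9 in shNC, and PPT1 had 76.3 and 75.2 in shPTPRN3 and 41.6 and 50.3 in shNC. In both genes the groups did not overlap. PPT1 overlaps 1189 bases of CAP1, on the other strand, which had 89.0 and 105 in shPTPRN3 and 79.1 and 95.9 in shNC. The sulfatases were mixed. IDS, which removes sulfate from heparan and dermatan chains, had 76.2 and 49.9 in shPTPRN3 and 22.3 and 53.5 in shNC, and its difference of 1.73 within the libraries numbered 1 stood against -0.10 within those numbered 2. The log2 fold change of IDS, 0.81, was 0.20 without shNC replicate 1. ARSA was at 0.53 and ARSB at -0.15, and without shPTPRN3 replicate 1 they were at 0.20 and -0.43. TPP1, at 0.80, was at 0.51 there.

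All 5 membrane proteins had positive log2 fold changes. LAMP1, a heavily glycosylated coat protein of the lysosomal membrane, had 285 and 193 scaled FPKM in shPTPRN3 and 165 and 137 in shNC (log2 fold change 0.64). LAMP2, its relative that also serves chaperone-mediated autophagy, had 51.5 and 45.5 in shPTPRN3 and 25.9 and 39.1 in shNC (0.59). SCARB2, an abundant integral protein of the lysosomal membrane, had 59.0 and 58.7 in shPTPRN3 and 24.6 and 37.0 in shNC (0.94, SE 0.36). The groups of these 3 genes did not overlap. CD63, a tetraspanin of late endosomes, was the second most abundant of the 44 genes, with 1226 and 1002 in shPTPRN3 and 899 and 610 in shNC (0.58). MCOLN1, the calcium channel of the lysosome, was the only one whose groups overlapped, with 19.5 and 27.4 in shPTPRN3 and 21.0 and 13.7 in shNC. By limma the adjusted p of the 5 ran from 0.324 to 0.712. LAMP2 was at 0.30 without shNC replicate 1, CD63 at 0.30 and MCOLN1 at 0.13 without shNC replicate 2, and LAMP1 at 0.36 without shPTPRN3 replicate 1. MCOLN1 was at 0.19 without shPTPRN3 replicate 2.

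The transcription factors that act on the CLEAR element were expressed at unequal levels, per length. TFE3 had 21.3 and 29.3 scaled FPKM in shPTPRN3 and 29.9 and 32.6 in shNC, and TFEB 3.55 and 1.97 in shPTPRN3 and 1.97 and 1.67 in shNC. The groups did not overlap for TFE3, which was lower (log2 fold change -0.31, SE 0.34), and overlapped for TFEB (0.38, SE 0.33). Neither passed the test (limma, adjusted p = 0.748 and 0.674). Without shPTPRN3 replicate 1 the value was -0.09 for TFE3 and 0.0756 for TFEB, and without shPTPRN3 replicate 2 it was -0.53 and 0.69. MITF, their relative, was at 1.37 and 1.96 in shPTPRN3 and at 1.52 and 2.46 in shNC.

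The 5 genes with the palindrome in the windows printed above had log2 fold changes of 1.06 for CTSA, 0.64 for LAMP1, 0.62 for ATP6V0D1, 0.44 for GAA and 0.42 for MCOLN1. Their median was 0.62, and that of the 26 tested members with a window but no palindrome was 0.43, over a range from -1.24 to 1.36. The values of the 5 thus lay inside the range of the others, and the gene with the largest value, ATP6AP1, had no palindrome in its window. This is a description with no test.

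The 4 autophagy genes included 2 with lower and 2 with overlapping values. GABARAPL1, a member of the LC3 and GABARAP family that coats autophagosomes, had 6.20 and 12.1 scaled FPKM in shPTPRN3 and 19.6 and 24.7 in shNC. It was lower in both shPTPRN3 libraries, with a log2 fold change of -1.24 and an SE of 0.39 (limma, adjusted p = 0.236), and the groups did not overlap. WIPI1, which binds the phosphoinositide of forming autophagosomes, was also lower, with 28.7 and 20.02 in shPTPRN3 and 32.7 and 32.0 in shNC (-0.42). WIPI1 was at -0.17 without shPTPRN3 replicate 2 and at -0.67 without shPTPRN3 replicate 1, and GABARAPL1 at -1.68 and -0.81. The WIPI1 locus overlaps 36244 bases of PRKAR1A on the other strand, which had 74.5 and 82.5 in shPTPRN3 and 25.4 and 65.0 in shNC.

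SQSTM1, the receptor p62 that links ubiquitin-tagged cargo to LC3, had 486 and 975 scaled FPKM in shPTPRN3 and 614 and 538 in shNC. The shPTPRN3 values lay on either side of the shNC values. MAP1LC3B, the most used autophagosome marker, had 100 and 127 in shPTPRN3 and 114 and 77.3 in shNC, which overlap. Both had a log2 fold change of 0.26, which turned to -0.24 for SQSTM1 without shPTPRN3 replicate 2 and to -0.02 for MAP1LC3B without shNC replicate 2.

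**Figure D4:**
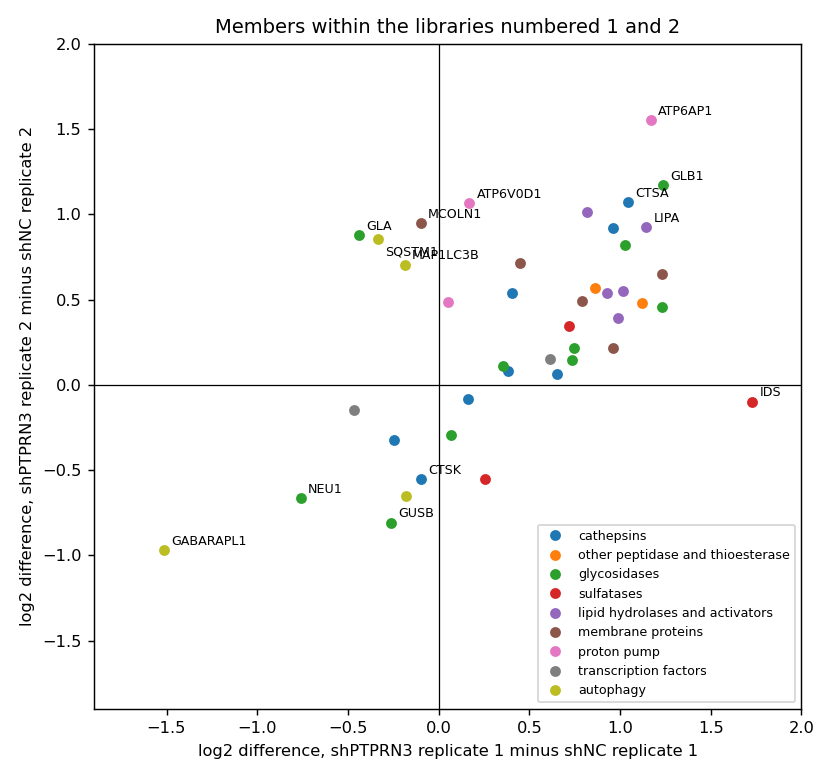
Log2 difference of shPTPRN3 minus shNC for the 42 tested genes within the libraries numbered 1 (horizontal) and within those numbered 2 (vertical), coloured by role. In the upper right quadrant lie 27 genes, with GLB1 at 1.24 and 1.17, and in the lower left 7, with GABARAPL1 at -1.51 and -0.97.

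Within the libraries numbered 1 the median log2 difference of the 42 genes was 0.63, and within those numbered 2 it was 0.47. It was positive in both for 27 members (64.3%) and negative in both for 7 (16.7%), against 34.2% and 35.6% of all genes tested. For the 39 tested members with a single row in the tables, the deposited intervals of both shPTPRN3 libraries lay above those of both shNC libraries in 13 and below them in 1, GABARAPL1, against 12.1% and 11.9% of all tested genes with a single row. These intervals describe each library alone and leave out the spread between libraries. Not every interval holds its own FPKM. That of ATP6AP1 lay above its interval in both shPTPRN3 libraries and in shNC replicate 1. The FPKM of GLB1 did so in both shPTPRN3 libraries, while those of LIPA and SCARB2 lay inside in every library. In 23 of the 39 members the FPKM lay inside its interval in every library, and among these 5 lay apart on the higher side and 1 on the lower, against 11.9% and 12.3% of the genes that met the same condition.

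Genes of the same pathways outside the 44 had smaller medians (not tested against the members), and none of them passed the adjusted threshold in any list. The other lysosomal hydrolases, 42 genes of which 34 were tested, had a median log2 fold change of 0.38, with 26 positive. Over all genes, 21.5% lay apart on the higher side and 23.1% on the lower, and 5.67% and 7.77% had an unadjusted p under 0.05. In this list the groups lay apart for 14 on the higher side (41.2%) and 3 on the lower (8.82%), and limma's unadjusted p was under 0.05 for 8 (23.5%) and 1 (2.94%). PLBD2, a phospholipase-B-like lysosomal protein, had 116 and 162 scaled FPKM in shPTPRN3 and 30.3 and 56.5 in shNC. MAN2B1, the lysosomal alpha-mannosidase, had 37.1 and 43.0 in shPTPRN3 and 15.8 and 12.4 in shNC, a log2 difference of 1.45, SE 0.33 (limma, adjusted p = 0.117). The median of the list was 0.13 without shPTPRN3 replicate 1 and 0.61 without shPTPRN3 replicate 2.

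Other genes of the lysosomal membrane and of transport to it had a median of 0.23 over 49 tested of 54, with 37 positive. Against the same shares over all genes, 21.5% and 23.1%, the groups lay apart for 18 on the higher side (36.7%) and 6 on the lower (12.2%). By limma the unadjusted p was under 0.05 for 3 (6.12%) and 2 (4.08%), against 5.67% and 7.77% of all genes. SLC36A1, a lysosomal amino acid transporter, had 5.61 and 9.39 scaled FPKM in shPTPRN3 and 1.59 and 2.28 in shNC. AP3M1, an adaptor subunit, had 11.6 and 14.3 in shPTPRN3 and 9.499 in shNC replicate 1, and was listed at 0 in shNC replicate 2. The other autophagy genes, 51 tested of 53, had a median of 0.27 with 33 positive. Here the groups lay apart for 19 on the higher side (37.3%) and 7 on the lower (13.7%), and limma's unadjusted p was under 0.05 for 6 (11.8%) and 2 (3.92%). RUBCN, an inhibitor of autophagosome maturation, had 6.50 and 16.0 in shPTPRN3 and 2.25 and 3.67 in shNC. The autophagy median was 0.07 without shPTPRN3 replicate 2 and 0.41 without shPTPRN3 replicate 1.

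The MiT factors with the mTORC1 regulators of the lysosome had a median of 0.04 over 26 tested of 29, 15 of them positive. The groups lay apart for 5 on the higher side (19.2%, against 21.5% of all genes) and 4 on the lower (15.4%, against 23.1%). By limma the unadjusted p was under 0.05 for 2 (7.69%, against 5.67% of all genes) and 1 (3.85%, against 7.77%). This median ran from 0.0015 without shNC replicate 2 to 0.20 without shPTPRN3 replicate 2. SESN1 and SESN2, the sestrins that restrain mTORC1, had the largest log2 fold changes of that list, 1.19 and 1.22. SESN1 had 14.4 and 12.2 scaled FPKM in shPTPRN3 and 4.81 and 5.76 in shNC, and SESN2 19.9 and 31.3 in shPTPRN3 and 11.6 and 8.80 in shNC. Of 12 cathepsin inhibitors 5 were tested, with a median of -0.04. Of these, 1 lay apart on the lower side (20%, against 23.1% of all genes) and 0 on the higher (against 21.5%). Cystatin C, CST3, had 199 and 98.9 in shPTPRN3 and 171 and 59.7 in shNC, which overlap, and its log2 fold change of 0.47 turned to -0.28 without shNC replicate 2 and to -0.03 without shPTPRN3 replicate 1. Cystatin A, CSTA, was at -0.25.

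**Figure D5:**
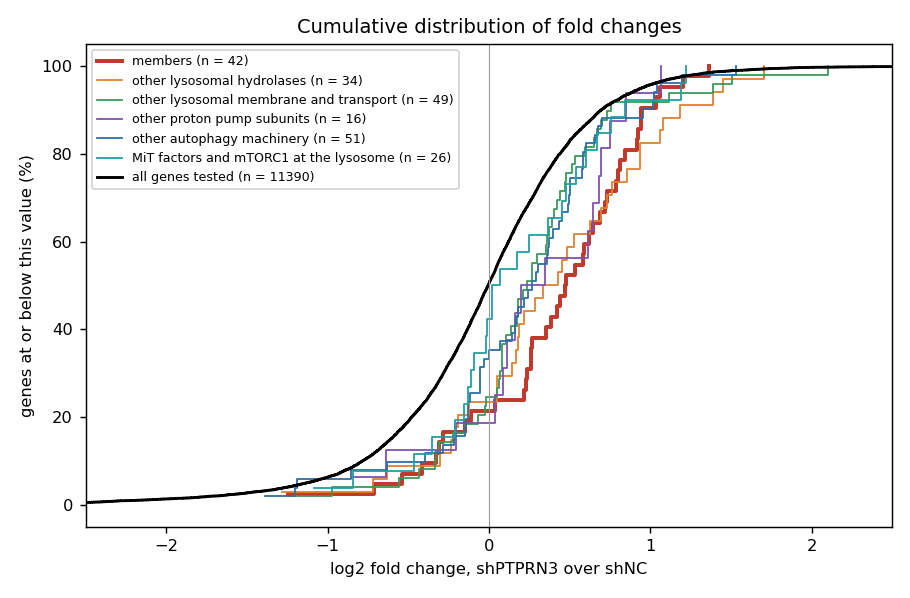
Cumulative share of genes (%) by log2 fold change of shPTPRN3 over shNC, for the members (red), 5 lists of related genes and all 11390 genes tested (black). The red curve crosses the middle at 0.48, the black curve at -0.01, and the curve of the MiT and mTORC1 list at 0.04.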

How the data were processed

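RNA from 2 shPTPRN3 and 2 shNC libraries of U87 cells went into libraries made by a kit that keeps strand, as the labels' protocols state. The submitters' processing notes list FastQC 0.72, STAR 2.6.0b-1, Cufflinks 2.2.1.2 and hg38. Annotation and strand setting: not given in the sources used here. Reads of overlapping genes may therefore have been divided wrongly between strands. The deposited values are FPKM with confidence intervals and a status for 33646 gene rows per library, per the file headers. They hold no fragment counts, so no count model was used. Depth was estimated as the median over single-exon coding genes of at least 1000 bases, taking an interval as 2 counting SDs on each side.

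The 651 rows not marked OK throughout were dropped and the rest summed per symbol. FPKM were divided by median-ratio factors (1.05 and 0.943 for shPTPRN3, 1.04 and 0.974 for shNC) taken over 9988 genes that reached 1 FPKM throughout. The fit used limma 3.58.1 (R 4.3.3), log2(scaled FPKM + 1) of all genes averaging 1 or more, eBayes with a trend, two-sided, Benjamini-Hochberg over 11390 genes, threshold 0.05. Fold changes are on that scale, which understates those of low genes. The fit was tested on simulated data. Python 3.11.15 with pandas 2.3.3 and matplotlib 3.10.9 joined and drew the data. GENCODE 29 gave transcript lengths and strands. Coordinates are those of the tables, from 1.

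The members and lists were chosen with earlier results of these data known. All 44 members could be named. The rule gave values in every library for the 6 largest log2 fold changes on each side, the 5 most abundant and 12 fixed members, and for each other list the called genes or else the 2 largest. FUCA1, IDUA, TPP1, PPT1, IDS, MCOLN1 and ATP6V1H were given in every library beyond that rule, after their values were seen. MITF, VIM, CHI3L1, S100B, SOX2, OLIG2, PDGFRA, CD44, TNC and EGFR were named after their values were seen. An FPKM of 0 can be a failed estimate. Tried as alternatives were other scalings (deposited FPKM, TPM, quantiles), pseudocounts of 0.1 and 0.5, other filters and row choices, eBayes options, removal of the length trend, omission of each library, and the replicate number as a block.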

Additional observations from a re-analysis of the deposited data

How the results depend on the processing

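Over 17 alternatives without a block, 1 of them (alternate sequences left out) chosen after seeing the data, limma called 0 of the members in either direction and the median stayed positive, between 0.38 and 0.70. Both ends came from leaving out a library, which gave medians of 0.38 to 0.70 for the members, 0.13 to 0.61 for the other hydrolases, 0.0695 to 0.41 for the other autophagy genes, 0.19 to 0.59 for the pump subunits and 0.0015 to 0.20 for the MiT and mTORC1 list. On TPM the medians were 0.33 for the membrane and transport list and 0.38 for the autophagy list, and at a mean of at least 5 FPKM 0.36 for the autophagy list and 0.17 for the MiT and mTORC1 list. The members with an unadjusted p under 0.05 on the higher side were 5 in the main fit, 8 with eBayes without a trend (19% of members, against 5.65% of all genes), 9 with quantile normalization (21.4%, against 6.9%), 10 on TPM (23.8%, against 5.14%) and 15 with the length trend removed (35.7%, against 8.8%). In the main fit these shares were 11.9% and 5.67%. At a mean of at least 5 FPKM the count was 4 (10%, against 5.86%). It stayed at 5 on deposited FPKM, with pseudocounts of 0.1 and 0.5, with no filter and with robust eBayes. The same held with all rows kept, with genes listed at 0 left out and with alternate sequences left out. Omitting a library lowered the count, but such a fit leaves 1 library in a group, so no count is given. Without single libraries, the log2 fold change ran from -0.11 to 0.57 for CTSD, from -0.70 to 0.0470 for CTSK, from -0.85 to 0.28 for CTSL, from -0.0203 to 0.54 for MAP1LC3B, from -0.24 to 0.76 for SQSTM1 and from -0.28 to 1.22 for CST3. PTPRN kept its value of -2.22 and passed the threshold with robust eBayes (adjusted p = 0.0362) and with genes listed at 0 left out (adjusted p = 0.0269), and passed at -2.17 with the length trend removed (adjusted p = 0.03905). It ran from -2.44 to -1.99 without single libraries. Over all genes limma called 48, against 0 with no filter on low values and 217 with genes listed at 0 left out.

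The labels do not say that equal replicate numbers mark a shared culture or day. The deviations of same-numbered libraries from their group means correlated at r = 0.519 across 11390 genes, which are not independent. With the replicate number as a block, which leaves 1 residual degree of freedom, limma called 11 of the 42 members higher and 2 lower. Over all genes it called 2163 of 11390, a count not split by direction. At limma's unadjusted p under 0.05 the block gave 18 members higher (42.9%) and 3 lower (7.14%). Over all genes these shares were 14.9% and 16.8%. PTPRN stood at -2.22 (limma, adjusted p = 9.21e-07). At the adjusted threshold the block gave 9 higher and 1 lower among 34 tested other hydrolases. It gave 5 and 2 among 49 membrane and transport genes and 2 and 1 among 16 pump subunits. Among 51 autophagy genes it gave 6 and 4, and among 26 genes of the MiT and mTORC1 list 4 and 2. For these called counts, and for those of the members, no share over all genes was computed in each direction. They therefore do not show a difference between a list and all genes. Fragment depth differs between the libraries and limits low genes such as TFEB, CTSH and CTSZ most.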

Other observations

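The coat proteins of the autophagosome, the LC3 and GABARAP family, were not alike. GABARAP had 60.02 and 25.5 scaled FPKM in shPTPRN3 and 137 and 79.0 in shNC, and MAP1LC3A had 15.7 and 5.49 in shPTPRN3 and 31.4 and 16.7 in shNC. With GABARAPL1, these 3 of the 6 tested family genes had both shPTPRN3 values below both shNC values, as did 23.1% of all genes tested. The family was picked out after its values were seen. The log2 fold change was -1.39 for GABARAP, -1.20 for MAP1LC3A and -1.24 for GABARAPL1 (limma, adjusted p from 0.236 to 0.392). Without single libraries GABARAP ran from -1.99 (without shPTPRN3 replicate 1) to -0.78 (without shPTPRN3 replicate 2), MAP1LC3A from -1.88 to -0.52 without the same libraries, and GABARAPL1 from -1.68 (without shPTPRN3 replicate 2) to -0.81 (without shPTPRN3 replicate 1). GABARAPL2 had 88.2 and 81.5 in shPTPRN3 and 92.9 and 61.9 in shNC, which overlap, as did MAP1LC3B and MAP1LC3B2. Mean transcript lengths were 855 bases for GABARAP, 952 for GABARAPL1 and 1078 for MAP1LC3A, and 752.5 for GABARAPL2, 660.0 for MAP1LC3B2 and 1656 for MAP1LC3B. With the trend of each library with transcript length removed, the value was -1.25 for GABARAP, -1.13 for GABARAPL1 and -1.09 for MAP1LC3A.

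CD68, a lysosomal membrane glycoprotein used as a macrophage marker, had 434 and 326 scaled FPKM in shPTPRN3 and 225 and 253 in shNC. CD68 was not on the list of 13 macrophage and microglia markers, and its part in the lysosomal values was not tested. It was named after its values were seen.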
